A study of Mus musculus with 11 samples.

Results

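The genes of the mouse CD3 complex, Cd3e, Cd3d, Cd3g and Cd247, were followed through Hi-C contact maps of Th1 cells. They were chosen by name and position: on the mm9 build a window at chr9:44500001-45100000 holds Cd3g, Cd3d and Cd3e side by side, and a window at chr1:167450001-168050000 holds Cd247. The 2 windows, each 600 kb long, were set among 3918 tiles of the same length on the autosomes, 3920 regions in all. Hi-C ligates DNA fragments that are near neighbours in the nucleus and records which fragment ends were joined; no RNA was measured. Single cells gave 10 maps, 9 cut with Bgl II and cell 8 with Dpn II, beside a pool of single cells and an ensemble map of a cell population, both cut with Bgl II. All came from male C57BL/6 spleen: CD4+ Th1 cells that had been stimulated with 1 µg/ml anti-CD3 for 3 days in 5% fetal calf serum, selected with anti-CD4 beads and grown on in 20 ng/ml IL-2. No untreated or unstimulated cells were mapped. The labels do not tie cells to separate mice or cultures, so they are not shown to be biological replicates, and each p below describes the spread between these cells, which may be technical. With no RNA, the Th1 label could not be checked against marker genes.

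The CD3 chains are the signalling part of the T cell receptor. Cd3e pairs with Cd3d or Cd3g in the membrane, Cd247 (the zeta chain) joins as a homodimer, and phosphorylation of their cytoplasmic motifs by Lck recruits Zap70. T cells need the complex to bring the receptor to the surface, and anti-CD3, the stimulus used here, binds it. In the GRCm38.p6 annotation Cd3g and Cd3d lie head to head with Cd3e beside them, Ube4a is the protein-coding gene before Cd3g, and Mpzl2 is the one after Cd3e. Creg1 precedes Cd247, and Pou2f1 follows it.

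The 250 bases before each gene's start are shown because contacts can be recorded only at cut sites, and because these are the regulatory ends of the genes. They come from RefSeq on GRCm38.p6, a later build than that of the maps, so these coordinates cannot be set against the windows. Capitals mark AGGAAG, a form of the ETS site, or its other strand CTTCCT.
Cd3e (GRCm38.p6 chr9:45009612-45009861, minus strand): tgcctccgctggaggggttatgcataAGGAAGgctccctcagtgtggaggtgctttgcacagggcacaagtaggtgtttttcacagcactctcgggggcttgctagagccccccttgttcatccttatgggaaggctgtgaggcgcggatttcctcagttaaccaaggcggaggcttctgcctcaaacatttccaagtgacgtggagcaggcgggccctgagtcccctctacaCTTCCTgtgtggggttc
Cd3d (GRCm38.p6 chr9:44981536-44981785, plus strand): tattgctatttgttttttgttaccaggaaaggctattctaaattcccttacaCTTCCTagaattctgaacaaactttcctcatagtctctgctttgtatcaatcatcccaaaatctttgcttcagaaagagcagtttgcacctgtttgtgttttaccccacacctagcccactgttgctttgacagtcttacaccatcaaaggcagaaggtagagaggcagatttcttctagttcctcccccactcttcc
Cd3g (GRCm38.p6 chr9:44980432-44980681, minus strand): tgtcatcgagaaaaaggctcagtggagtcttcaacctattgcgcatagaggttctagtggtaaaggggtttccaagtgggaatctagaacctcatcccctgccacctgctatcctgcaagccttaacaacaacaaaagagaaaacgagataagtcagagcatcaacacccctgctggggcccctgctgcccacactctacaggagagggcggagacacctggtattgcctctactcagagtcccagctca
Cd247 (GRCm38.p6 chr1:165788431-165788680, plus strand): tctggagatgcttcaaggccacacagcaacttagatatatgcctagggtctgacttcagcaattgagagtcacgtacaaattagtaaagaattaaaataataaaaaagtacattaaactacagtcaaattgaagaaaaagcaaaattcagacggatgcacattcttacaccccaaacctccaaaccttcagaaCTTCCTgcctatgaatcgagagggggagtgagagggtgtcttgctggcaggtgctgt
None of the 4 stretches held the Bgl II site AGATCT, which is in 6.37% of 32851 mouse promoters of this length, or the Dpn II site GATC, which is in 41.9%. The ETS form AGGAAG was in 3 of the 4, with 2 matches at Cd3e, 1 at Cd3d, 1 at Cd247 and 0 at Cd3g, and in 29.5% of all promoters. Other and shorter forms of the ETS site were not searched. Searched on both strands, the E-box CANNTG was in all 4 (66.2% of all promoters), the GATA core GATAA at Cd3g alone (22.6%) and the RUNX core TGTGGT at none (14.0%). A match describes letters, not binding.

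The 9 Bgl II cells held 11156 to 30665 contacts, cell 8 held 12225, the pool 2294791 and the ensemble 51834382. The 9 cells gave the pool 174955 of its contacts. In the cells the chromosome 9 window held 2 to 27 contact ends (median 11, 113 in all) and the Cd247 window 5 to 16 (median 9, 90 in all). In the pool the windows held 1731 and 1384 ends, and in the ensemble 57581 and 36827. Values of single cells are therefore coarse, and Wilson intervals, all at 95%, cover counting error only. They treat contact ends as independent, although a contact inside a window gives both of its ends, so they are too narrow.

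All 4 genes lay in the same chromatin class. Each 1 Mb bin was put in a class by the sign of its chromosome's leading eigenvector in the ensemble, and class 1 is the side richer in fragment ends. The bin with Cd3e, Cd3d and Cd3g had an eigenvector value of 0.108, above 90.9% of the bins of chromosome 9, of which 36.4% were class 1. The bin with Cd247 had 0.0967, above 90.6% of the bins of chromosome 1, of which 34.9% were class 1. The neighbouring bins differed. On chromosome 9 the next bin, from 45000001, was also class 1 (0.103), while on chromosome 1 the next bin, from 168000001, was class 2 (-0.0356). In bins of 500 kb that last stretch was class 1, at 0.0185, so the side of the chromosome 1 flank depends on the bin size. Every bin with a CD3 gene stayed class 1 at 500 kb and 250 kb.

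Contacts within the chromosome followed these classes. Relative to the contacts expected at the same distance, the bin of Cd3e, Cd3d and Cd3g met class 1 bins over 5 Mb away at a median of 1.23 in the pool and 1.50 in the ensemble. It met class 2 bins at 0.0 in the pool and 0.310 in the ensemble. The pool value is a floor, since most of these 72 bins had no pool contact with it (upper quartile 0.248). The Cd247 bin met class 1 bins at 1.33 in the pool and 1.52 in the ensemble, and class 2 bins at 0.358 and 0.689 in the same maps. The value for class 2 was lower at the chromosome 9 genes in both maps, a description of 2 loci with no test. In the pool it rests on sparse bins, as the lower quartile for class 2 was 0.0 at Cd247 too. The eigenvectors were computed from the same ensemble contacts, so the ensemble values are not independent of the classes. Summed over the 9 cells, 15 of 19 far partners of the chromosome 9 window and 15 of 24 of the Cd247 window were class 1. Cell 1 alone gave 7 of the 15 class 1 partners of the chromosome 9 window, and cells 5, 9 and 10 gave no far partner there. The pool had 85.8% and 64.1% for the same windows, and the ensemble 76.4% and 61.9%.

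In 50 kb bins of the balanced ensemble, no CD3 gene sat at a border of an insulation domain. Insulation here is the log2 contact frequency across a point within 500 kb, relative to the chromosome, so low values mark borders. At the bins of Cd3e, Cd3d and Cd3g it was 0.65 in the pool and 0.83 in the ensemble, above 92.5% and 96.1% of positions on chromosome 9 in those maps. At Cd247 it was 0.63 in the pool and 0.55 in the ensemble, above 91.0% and 90.7% of positions on chromosome 1. In the ensemble the nearest minima lay 1100 kb before and 900 kb after the midpoint of the chromosome 9 genes, at 43700000 and 45700000. Around Cd247 they lay 562.5 kb before and 587.5 kb after, at 167200000 and 168350000. The border after Cd247 was the deeper of its pair at 50 kb, at -0.84 against -0.12. At 25 kb the gap was smaller, at -0.44 (168350000) against -0.24 (167225000), and a lower minimum, at -0.46, lay at 168500000. The 25 kb bins from 168450001 and 168475001 had too few contacts to be used, so this side is thinly covered. In bins of 25 kb, which also shortens the distance covered, minima appeared inside both windows. The nearest lay 225 kb from the chromosome 9 midpoint and 37.5 kb from that of Cd247. The latter, at 167800000, fell within the bins of Cd247 (167700001 to 167825000). Both minima were dips at high values, 1.03 and 0.71, above 97.7% and 93.6% of positions on their chromosomes. Without balancing at 50 kb, a minimum lay 62.5 kb from the Cd247 midpoint, at the edge of its gene bins (167700000). On chromosome 9 the nearest stayed at 900 kb. The absence of inner minima in the ensemble thus holds at 50 kb, with balancing for both windows and without it for chromosome 9. The pool, far thinner, had minima inside both windows at 50 kb, 150 kb from the chromosome 9 midpoint and 62.5 kb from that of Cd247, again at the edge of its gene bins.

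**Figure D1:**
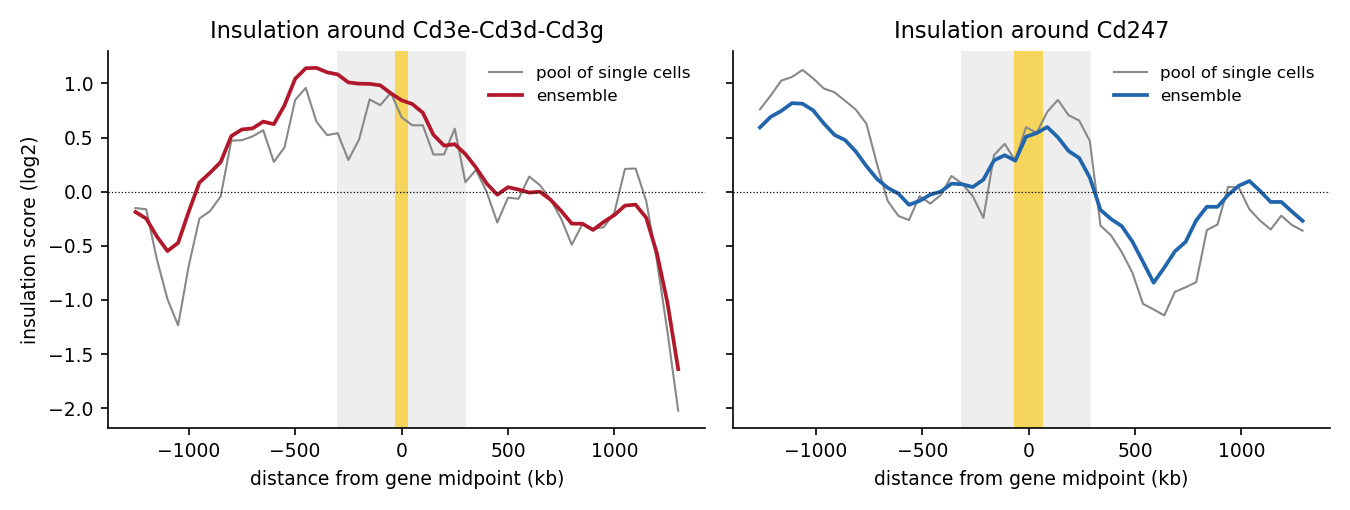
Insulation score (log2, y axis) in 50 kb bins against distance from the gene midpoint (kb, x axis), for Cd3e-Cd3d-Cd3g on the left and Cd247 on the right, with the pool in grey and the ensemble in colour. Grey shading is the 600 kb window and yellow the gene bins; at the gene bins the ensemble stands at 0.83 and 0.55, and the lowest ensemble point near Cd247 is the border at 587.5 kb, at -0.84, while the pool falls to -1.14 at 637.5 kb.

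The genes met their close surroundings more often than distance alone gives. The bins of Cd3e, Cd3d and Cd3g (chr9:44775001-44825000) had 350 and 376 ensemble contacts with the 275 kb on the lower and the higher side, 2.18 times the expected number, against a median of 0.889 over blocks of the same size on chromosome 9. That value lay above 98.8% of those blocks, and both sides were alike, with 2.21 on the side of lower coordinates and 2.15 on the other. The bins of Cd247 (chr1:167700001-167825000) had 1.60 times the expected number with the 225 kb on either side, above 93.4% of blocks on chromosome 1. Here the sides were unlike, with 1.12 on the side of lower coordinates and 2.08 on the other. The pool, not balanced, had the same order around Cd247, at 1.39 and 2.23 from 20 and 32 contacts. Without balancing, the ensemble values around Cd247 were 2.71 and 2.47, the opposite order. In the pool, again not balanced, the chromosome 9 genes had 2.13 and 1.48 for the lower and higher sides, from 21 and 14 contacts. Over both sides together the pool gave 1.81 for the chromosome 9 genes and 1.81 for Cd247. These lay above 92.5% and 92.6% of blocks, so the higher ensemble value on chromosome 9 was not seen in the pool. Blocks of both classes were used, with no rank among class 1 alone.

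**Figure D2:**
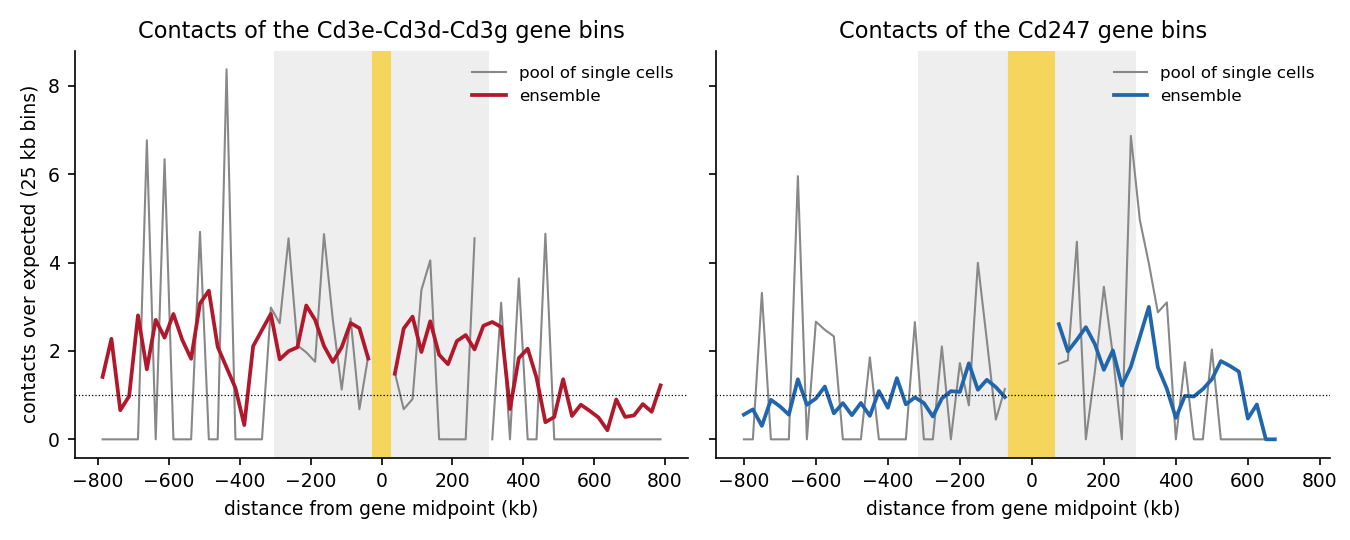
Contacts of the gene bins over the number expected at that distance (y axis, 25 kb bins) against distance from the gene midpoint (kb, x axis), for Cd3e-Cd3d-Cd3g on the left and Cd247 on the right, with the pool in grey (not balanced) and the ensemble in colour (balanced). Yellow marks the gene bins and grey the window; the dotted line is 1. Within 275 kb the ensemble averages 2.21 and 2.15 on the lower and higher side of the chromosome 9 genes, and within 225 kb 1.12 and 2.08 around Cd247; farther out it also falls below 1, as at 637.5 kb (0.206).

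The chromosome 9 window was among the most self-contained regions of the ensemble. Of its cis ends, 37.3% had their partner inside the same 600 kb, more than in 99.1% of tiles (median 16.9%) and in 97.4% of class 1 tiles (median 22.3%). For Cd247 the share was 24.1%, above 85.3% of tiles and 62.2% of class 1 tiles. The pool gave 59.9% for the chromosome 9 window and 40.6% for Cd247, against a median of 31.5% over tiles and 39.8% over class 1 tiles. Among class 1 tiles of the pool the chromosome 9 window was above 99.7%, but Cd247 only above 54.4%. By distance, 12.5% of the cis ends of the chromosome 9 window joined at 25 to 100 kb and 35.4% at 100 kb to 1 Mb, against 5.73% and 19.5% over all autosomes. From 1 to 10 Mb the order turned, with 10.6% in the window and 22.1% over autosomes. The Cd247 window had 18.0% at 100 kb to 1 Mb and 21.2% at 1 to 10 Mb. The chromosome 9 window also held 448 fragment ends, more than 96.9% of tiles, and the Cd247 window 332 (tile median 334.0); whether this density bears on the shares was not tested.

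**Figure D3:**
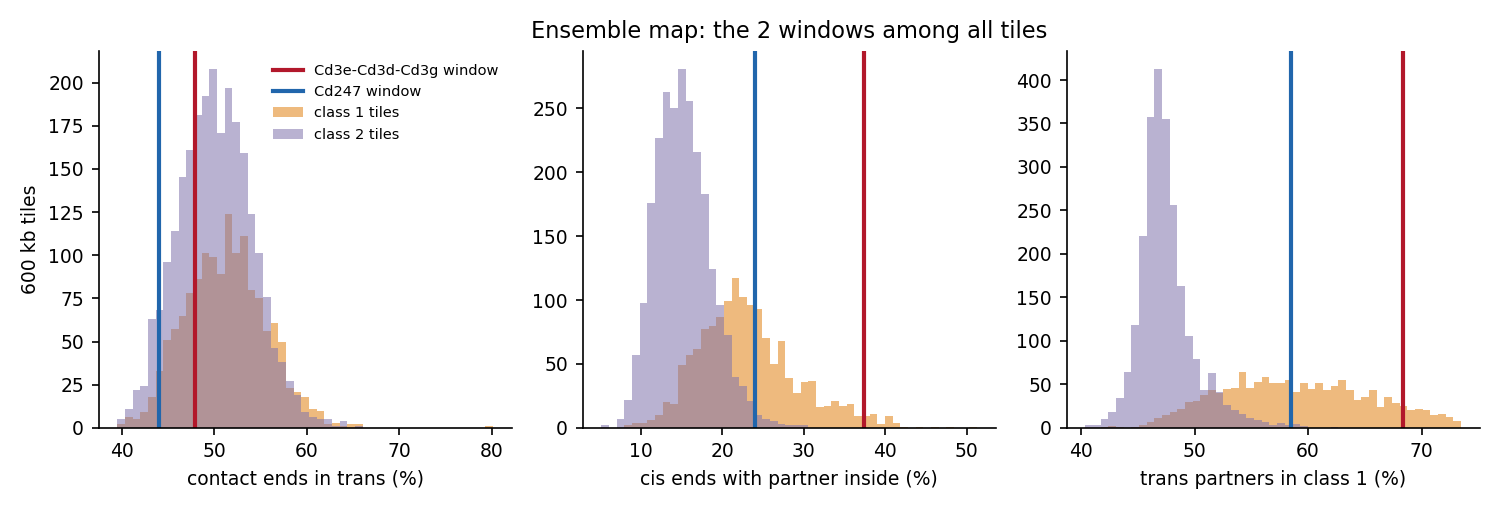
Histograms of 600 kb tiles in the ensemble (y axis, number of tiles) by class, class 1 in orange and class 2 in purple, for the share of contact ends in trans, of cis ends with the partner inside the tile, and of trans partners in class 1 (x axes, percent). Red lines mark the Cd3e-Cd3d-Cd3g window (48.0%, 37.3% and 68.3%) and blue lines the Cd247 window (44.0%, 24.1% and 58.5%); the red line stands at the far right of the middle panel.

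Neither window's share of contacts with other chromosomes passed the test. In the 9 cells, 24 of the 113 ends of the chromosome 9 window were in trans, against 21.5 expected from the trans shares of the same cells. The share ran from 0.0% in cells 1 and 7 to 100% in cell 9, which had only 2 ends there, with a median of 22.2%. The excess was 2.22 points, higher in 5 cells and lower in 4 (exact two-sided sign-flip permutation test over 9 cells, p = 0.613, Benjamini-Hochberg adjusted p = 0.886 over 3920 regions), and without cell 2 it was -0.63 points. In the Cd247 window 12 of 90 ends were in trans, against 16.7 expected, with shares from 0.0% to 37.5% and a median of 12.5%. The difference was -5.27 points, lower in 5 cells and higher in 4 (same exact test, p = 0.258, adjusted p = 0.671). Cells 1 and 7, with 0 of 16 and 0 of 8 ends in trans for chromosome 9, allow shares of up to 18.8% and 37.5% (3 counts of the total). Of all regions, 11.4% reached an exact p under 0.05 in either direction, and 0% an adjusted one. The smallest p that 9 cells allow is 0.00391.

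The trans share of the chromosome 9 window averaged 28.9% ± 31.2 and that of Cd247 13.7% ± 13.8 (SD, n = 9 cells each). The difference of 15.2 points ± 31.0 was positive in 5 cells, negative in 3 and 0 in 1, and did not pass the exact sign-flip permutation test over 9 cells (p = 0.195). Without cell 9 it was 7.09 points. In the pool the shares were 25.8% (23.8 to 27.9) and 18.5% (16.5 to 20.6), against 20.2% in the whole pool. In the ensemble they were 48.0% (47.6 to 48.4) and 44.0% (43.5 to 44.5), against 50.5% in the whole map. By this count the chromosome 9 window was above its map in the pool and below it in the ensemble, while the Cd247 window was below its map in both, and above only 5.33% of ensemble tiles. Class 1 tiles had a median of 23.1% in the pool and 51.3% in the ensemble. Among them the chromosome 9 window was above 70.0% in the pool and 23.7% in the ensemble. The Cd247 window was above 15.6% and 3.73% in the same maps. A contact inside a window counts at both of its ends, which lowers the trans share and makes the intervals too narrow. The chromosome 9 window held 385 such contacts in the pool and 5594 in the ensemble. Whether its place relative to these maps holds with each contact counted a single time was not tested.

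**Figure D4:**
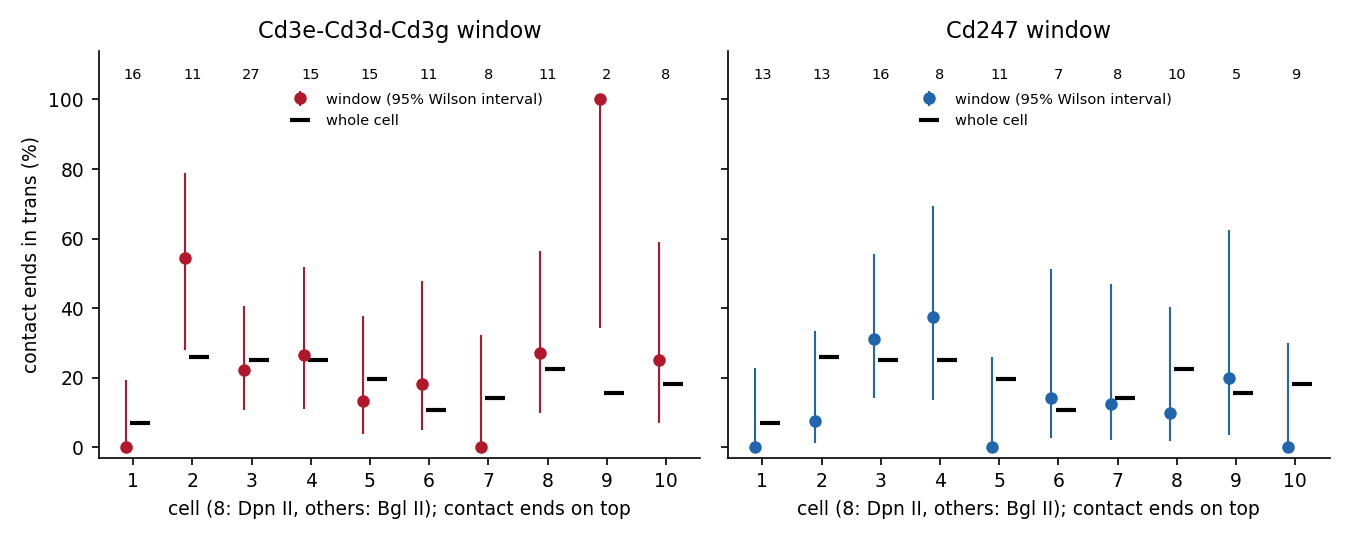
Share of contact ends in trans (percent, y axis) in each cell (x axis), for the Cd3e-Cd3d-Cd3g window on the left and the Cd247 window on the right. Points with bars are the window with its 95% Wilson interval, black dashes the whole cell, and the figures on top the window's contact ends; all intervals but those of the Cd3e-Cd3d-Cd3g window in cells 2 and 9 hold the cell's own share, and the point at 100% in cell 9 rests on 2 ends.

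Within the windows the trans share varied from bin to bin. Over 25 kb bins with at least 5 fragment ends it ran from 38.8% to 53.7% (median 47.1%) in the chromosome 9 window and from 32.0% to 51.5% (median 44.3%) in the Cd247 window, in the ensemble. The lowest bin of the Cd247 window lay 25 kb after the midpoint of the gene bins, among the bins of the gene itself, and held only 8 fragment ends. The other bins of the gene had 32.5%, 44.3%, 43.7% and 49.9%, so the gene was not low throughout. The bins of Cd3e, Cd3d and Cd3g together had 23.7% of 131 ends in trans in the pool and 46.0% of 4063 in the ensemble. Those of Cd247 had 15.8% of 304 in the pool and 41.7% of 9231 in the ensemble.

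Trans partners of the window around Cd3e, Cd3d and Cd3g lay mostly in class 1, although few came from the gene bins themselves, which gave 1 in cell 2 and 1 in cell 10. In the 9 cells 21 of 24 partners of the chromosome 9 window were class 1, against 11.4 expected from all trans ends of the same cells on other chromosomes. The share was above expectation in 7 of the 7 cells with a trans partner, by 40.1 points (exact two-sided sign-flip permutation test, p = 0.0156, the smallest 7 cells allow), and the adjusted p over 3920 regions was 0.288, so it did not pass. Of all regions, 7.91% had an exact p under 0.05 above expectation, 0% an adjusted one, and the window's excess was larger than in 99.0% of them. With classes from 500 kb bins the excess was 26.0 points. In the pool 79.1% of 446 partners were class 1, against 49.1% of trans ends elsewhere, and in the ensemble 68.3%, against 54.8%. Class 1 tiles themselves had medians of 63.0% in the pool and 58.5% in the ensemble, and the window stood above 89.9% and 91.4% of them. The excess in the cells was ranked over tiles of both classes only.

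Trans partners of Cd247 did not pass either, and the difference between the windows was not tested. In the cells 6 of 12 were class 1, against 5.72 expected (same exact test, p = 0.875, adjusted p = 0.962), with 2 cells above and 4 below. The pool had 64.1% of 256 and the ensemble 58.5%, above 51.6% and 49.8% of class 1 tiles in those maps.

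Partner chromosomes differed between the windows in the ensemble. Relative to both sides' trans ends, the chromosome 9 window met chromosome 11 at 1.39 (2784 contacts), chromosome 19 at 1.23, chromosome 17 at 1.17 and chromosome 15 at 1.15. It met chromosome X at 0.774 and chromosome 14 at 0.864. The Cd247 window met chromosome 2 at 1.18 and chromosome 4 at 1.13, and chromosome 19 at 0.770 and chromosome 17 at 0.813. Among class 1 tiles of chromosome 9, 89.0% met chromosome 11 less than the CD3 window did. Part of the contrast was shared by other class 1 tiles. For chromosome 19 their medians were 1.15 on chromosome 9 and 0.902 on chromosome 1, with the windows above 76.7% and 20.4% of them. For chromosome 17 the medians were 1.03 and 0.956, with the windows above 89.0% and 0.926%. The thinner pool followed the ensemble for some of these chromosomes and not for others. There the chromosome 9 window had 45 contacts with chromosome 11, against 31.1 expected, and 37 with chromosome 15, against 22.8. It had 20 with chromosome 17, against 20.3 expected, and 24 with chromosome 14, against 21.6. The Cd247 window had 3 pool contacts with chromosome 19, against 9.64 expected, but 15 with chromosome 2, against 18.5.

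**Figure D5:**
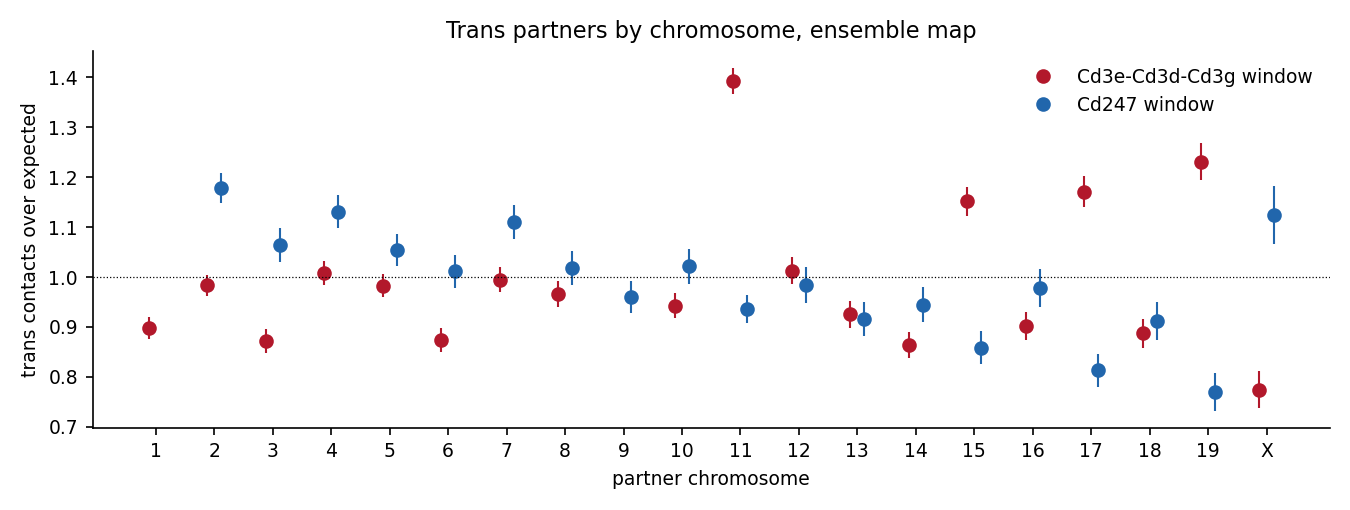
Ensemble trans contacts over expected (y axis) by partner chromosome (x axis), with the Cd3e-Cd3d-Cd3g window in red and the Cd247 window in blue; bars are the square root of the count over the expected number. The red point for chromosome 11 stands highest, at 1.39, and chromosomes 17 and 19 lie above 1 for the red window and below it for the blue one.

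Both windows met class 1 tiles more than class 2 tiles in trans, at median ratios of 1.08 and 0.656 for the chromosome 9 window and 0.996 and 0.840 for Cd247. The tiles with the highest ratios for the chromosome 9 window were chr4:133200001-133800000 (64 contacts, 3.70 times expected), chr19:5400001-6000000 (69 contacts, 3.65 times) and chr10:80400001-81000000 (47 contacts, 3.57 times), all class 1. For Cd247 they were chr17:39600001-40200000 (4 contacts, 0.905 expected), chr6:123600001-124200000 (5 contacts, 1.20 expected) and chr2:172800001-173400000 (25 contacts, 3.81 times), of which the first and second are class 2 and rest on few contacts. The trans profile of the chromosome 9 window over 1 Mb bins was most like those of chr2:30000001-30600000 (Pearson r = 0.632 over 2214 bins), chr19:5400001-6000000 (0.628) and chr15:78600001-79200000 (0.628). For Cd247 the closest were chr2:180000001-180600000 (0.310), chr5:149400001-150000000 (0.288) and chr14:121800001-122400000 (0.287). The profiles of both CD3 windows correlated at 0.0122 over 2199 bins. Among all tiles this r was above 74.9% for the chromosome 9 window (median -0.12) and above 65.9% for Cd247 (median -0.019). Among class 1 tiles, the class of both windows, it was above only 35.3% for the chromosome 9 window and 49.4% for Cd247. By that rank the profiles of the CD3 windows were not unusually alike for class 1. The 1 Mb bins share 1 map, its depth and its fragment density, so the r values are descriptions.

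Contacts between the windows were few. The ensemble had 7 contacts between them (exact Poisson interval 2.81 to 14.4), against 8.99 expected, a ratio of 0.778 (0.313 to 1.60). With the expectation taken from fragment ends the ratio was 1.63, and with windows of 300 kb it was 1.72, from 4 contacts. No contact joined them in the 9 cells, in cell 8 or in the pool, where 0.128 was expected and a count of 0 allows up to 3.69, so no excess was detectable there at this depth.

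Single cells showed fewer CD3 contact ends than the ensemble share gives. The chromosome 9 window had 113 ends in the 9 cells, against 194 from its share of ensemble ends, a ratio of 0.581, and was lower in 8 cells and level in cell 3 (exact two-sided sign-flip permutation test over 9 cells, p = 0.00781, adjusted p = 0.0294). The Cd247 window had 90 ends, against 124, a ratio of 0.724, lower in 8 cells and higher in cell 10 (same exact test, p = 0.00781, adjusted p = 0.0294). Of all regions 39.3% had an adjusted p under 0.05 in either direction and 22.1% an exact p under 0.05 below expectation, so the calls are not particular to these windows. The median ratio was 0.767 over class 1 tiles and 1.36 over class 2 tiles. Set against their share of fragment ends, the windows had 0.999 and 1.07 times the expected ends, and neither passed the exact permutation test (adjusted p = 1.0 and 0.799). Leaving out any of cells 1, 2, 4, 5, 6 or 7 ended both calls, and leaving out cell 3 ended that of Cd247 (adjusted p up to 0.0542).

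At the genes themselves the cells held few contacts. The bins of Cd3e, Cd3d and Cd3g had 5 ends in the 9 cells, of which cell 2 had 2 and cells 1, 4 and 10 had 1 each, and cell 8 had 4. Cell 2 joined them to chromosome 3, cell 10 to chromosome 2 and cell 8 to chromosome 10, at 2 places. The bins of Cd247 had 10 ends in cell 3, 6 in cell 6 and 4 in cell 10, 2 each in cells 1, 2, 4, 5 and 7, and 0 in cells 8 and 9. Cell 3 had 3 contacts with both ends in the Cd247 bins, cell 6 had 2 and cell 10 had 1. Partners within 1 Mb of each other were found in 2 cells, both for the chromosome 9 window: cell 2 had partners on chromosome 3 at 136.9 and 137.6 Mb, and cell 4 on chromosome 15 at 8.5 and 8.7 Mb.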

How the data were processed

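Contact lists of 10 single cells, 1 pool and 1 ensemble map were used. The deposited files give, per the file headers, a chromosome and a coordinate in bp for both ends of each contact; there is no unit of abundance, and each pair appears a single time. Positions are on mm9, per the submitters' processing notes. For the aligner and filters: not given in the sources used here. Per the series' design text the pool holds several single-cell samples, of which no list was used here.

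Members, windows and lists were chosen with earlier results of these data known. The named tiles, by rule, were the 3 with the most trans contacts over expected, the 3 with the most similar trans profile, and, in each cell, partners within 1 Mb of another. Other T cell receptor signalling genes were not analysed here, since no mm9 annotation was used.

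Scripts ran in Python 3.11.15. They used pandas 2.3.3 for tables, scipy 1.17.1 for intervals and minima, numpy 2.4.6 for matrices, and matplotlib 3.10.9 for plots. Tiles had at least 100 ensemble fragment ends. Maps were balanced in 50 iterations, with rows below 0.2 of the median row sum removed. Insulation used 50 kb bins, a 500 kb square and a prominence of 0.1. The sign of each eigenvector was set by fragment end density. Tests were exact sign-flip tests over the 9 Bgl II cells with Benjamini-Hochberg adjustment over all regions at 0.05, and were tested on simulated data. Alternatives were cell 8 added, each cell left out, 300 kb windows, contacts under 25 kb left out, other bins, no balancing, and expectations from fragment ends.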

Additional observations from a re-analysis of the deposited data

Results flagged for a closer look

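The trans share of the Cd3e-Cd3d-Cd3g window in cell 9 stood 84.3 points above that cell's own share, farther from the other 8 Bgl II cells than the critical value of Dixon's test allows. It rests on 2 contact ends, both in trans. Over 8 sets of values tested (4 measures in 2 windows) this was the 1 sample that stood apart; chance marks about 1 set in 20.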

How the results depend on the processing

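The chromosome 9 trans excess of 2.22 points ranged from -0.63 to 3.80 with each cell left out, the Cd247 value from -7.75 to -3.08, and the difference between the windows from 7.09 to 18.7. The chromosome 9 excess was 9.16 points with cis contacts under 25 kb left out and 6.49 with each contact counted a single time; none of these passed under any alternative run. With each cell left out, the excess of class 1 partners ranged from 38.0 to 46.8 points for chromosome 9 and from -13.6 (without cell 4) to 8.52 for Cd247, where leaving out cell 6 gave -1.86. With 300 kb windows the chromosome 9 excess was 36.8 points and with classes from 500 kb bins 26.0; none passed after adjustment. The log2 ratio of contact ends ranged from -0.96 to -0.69 for chromosome 9 and from -0.53 to -0.41 for Cd247. With 8 cells the smallest p is 0.00781, and 3 and 2 of the 9 fits stayed under 0.05 after adjustment. With 300 kb windows both calls ended, at -0.78 and -0.27 (exact permutation test, adjusted p = 0.0638 and 0.370), and with the fragment end expectation they were -0.0017 and 0.10. The nearest insulation minimum moved to 225 and 37.5 kb in 25 kb bins, and to 62.5 kb for Cd247 without balancing. Without short cis contacts the ensemble trans shares were 50.7% and 46.1%, against 52.6% in the whole map. Without balancing the gene bins had 3.71 and 2.59 times the expected contacts, and eigenvectors without balancing put nearly all bins on 1 side on 15 of 20 chromosomes, chromosome 1 among them, so they give no classes and the 5.83 and 0.80 points of class 1 excess made with them are not interpretable. The ratio between the windows was 1.63 by fragment ends and 1.72 at 300 kb. The pool without the 9 cells, an alternative chosen after seeing the data, stayed within counting error. No paired analysis was possible because the groups of maps share fewer than 2 replicate numbers. Depth limits the single cells: a count of 0 of 8 ends in a cell is no sign of absence.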

Other observations

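Some fragment ends were seen in several cells, an observation chosen after the values were seen. Of 86 distinct fragment ends of the chromosome 9 window in the 9 Bgl II cells, 68 were seen in 1 cell, 14 in 2 and 4 in 3, with ends matched within 5 bp. The fragment end at 44869961 was joined in trans in cells 3, 4 and 6, to chromosomes 11, 13 and 10. Of 66 distinct ends of the Cd247 window, 49 were seen in 1 cell, 14 in 2 and 3 in 3 or more, and the end at 167966944 was seen in cells 3, 4, 5 and 7. The cells' 113 contact ends on chromosome 9 fell among 448 fragment ends, and the 90 of Cd247 among 332, so some repeats are bound to occur. Repeats were not counted in other tiles, so they are not shown to be particular to these windows.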
